A study of Mus musculus with 2 samples.

Results

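The nuclear-encoded respiratory chain genes are 98 protein-coding gene records on mouse chromosomes 1 to 19 and X whose symbols begin with Ndufa, Ndufb, Ndufc, Ndufs, Ndufv, Uqcr, Sdh, Atp5 or Cox4 to Cox8, out of 21755 protein-coding genes in GENCODE M21 (GRCm38). They carry 97 symbols, because Atp5o has 2 overlapping records. By symbol, 38 are complex I subunits, 8 complex I assembly factors, 4 complex II subunits, 4 complex II assembly factors, 8 complex III subunits, 18 complex IV subunits and 18 ATP synthase genes. Mature olfactory sensory neurons were sorted by FACS from olfactory epithelium, and the mice were adults of mixed sex and unspecified strain. In these mice the transcriptional cofactor Ldb1 is deleted by OMP-Cre, a recombinase driven from the olfactory marker protein gene, which is active in mature olfactory neurons. The study made in situ Hi-C contact maps from 2 biological replicates of 1000000 cells each, with DpnII digestion. Both replicates belong to 1 genotype and no control group was analysed here. One list of 7610 contact domain boundaries, called on the pooled contacts, was the measurement used. It therefore has no replicate error, and the sequencing depth behind it is unknown. Neither the deletion of Ldb1 nor the cell type could be checked, since the list holds no expression values and the identity of the sorted cells rests on the labels.

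The respiratory chain transfers electrons from NADH and succinate to oxygen through complexes I to IV in the inner mitochondrial membrane. Complexes I, III and IV pump protons, and ATP synthase uses the gradient to make ATP. A small set of subunits is encoded in mitochondrial DNA, and all others are nuclear genes scattered over the chromosomes, so the complexes are assembled from dispersed loci. Many of these genes are active in almost every cell, and in neurons the pathway supplies most of the ATP. A boundary is a place in the genome across which contacts are depleted. In mammals many boundaries carry CTCF, a zinc finger protein that stops loop extrusion by cohesin, and boundaries often lie near transcription start sites (TSSs).

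Promoter sequences are shown for 3 complex I genes whose start sites lie in a boundary bin, chosen to set 1 promoter with NRF1 and CTCF letters beside 1 with NRF1 letters alone and 1 with neither. The promoter windows are RefSeq sequences (GRCm38.p6), from 250 bases before to 50 after the RefSeq start, printed along the gene's strand. Capitals mark matches on either strand to the motif GCGCANGCG, bound by NRF1, a regulator of nuclear genes for mitochondrial proteins, or to the CTCF consensus. The Ndufaf4 window is chr4:24897833-24898132 (plus strand), the Ndufb10 window chr17:24724374-24724673 (minus strand) and the Ndufaf2 window chr13:108158576-108158875 (minus strand).
Ndufaf4: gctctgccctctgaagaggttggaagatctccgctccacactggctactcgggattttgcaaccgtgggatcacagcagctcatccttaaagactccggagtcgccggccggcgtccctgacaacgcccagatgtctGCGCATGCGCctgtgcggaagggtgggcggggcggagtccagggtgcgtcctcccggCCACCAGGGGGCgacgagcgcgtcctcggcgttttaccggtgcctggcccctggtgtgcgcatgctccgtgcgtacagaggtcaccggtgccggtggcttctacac
Ndufb10: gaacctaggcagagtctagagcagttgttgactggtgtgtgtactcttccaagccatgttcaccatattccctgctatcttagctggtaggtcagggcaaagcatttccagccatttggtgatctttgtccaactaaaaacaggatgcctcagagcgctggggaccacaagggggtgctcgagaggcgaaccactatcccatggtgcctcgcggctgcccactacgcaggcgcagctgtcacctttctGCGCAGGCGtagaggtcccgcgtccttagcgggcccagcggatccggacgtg
Ndufaf2: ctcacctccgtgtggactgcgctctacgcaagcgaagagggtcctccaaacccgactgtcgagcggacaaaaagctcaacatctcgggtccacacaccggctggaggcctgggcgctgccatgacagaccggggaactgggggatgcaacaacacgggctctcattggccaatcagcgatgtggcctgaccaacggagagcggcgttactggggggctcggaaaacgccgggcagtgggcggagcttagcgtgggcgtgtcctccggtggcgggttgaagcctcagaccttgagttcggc
The Ndufaf4 promoter held a palindrome read as a pair of overlapping NRF1 matches, on opposite strands, which begin 113 and 112 bases before the start. It also held a CTCF consensus that begins 56 bases before the start. The Ndufb10 promoter held 1 NRF1 match that begins 2 bases before the RefSeq start. The Ndufaf2 promoter, also in a boundary bin, held no capital letters.

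The CTCF consensus matches below lie in or near the boundary at 5 respiratory chain genes, taken from boundaries of different strength. The search fixed most letters of a match, so the likeness of the capital letters follows from the search. Matches picked at 5 genes cannot show how a match relates to strength. They are printed in the direction of the match, with 9 bases on each side and the consensus in capitals. The positions are chr16:91935332-91935361 (minus strand) for Atp5o, chr4:24898018-24898047 (plus) for Ndufaf4, chr13:108153169-108153198 (minus) for Ndufaf2, chr12:69726802-69726831 (plus) for Atp5s and chrX:106018947-106018976 (plus) for Cox7b, all read from the GRCm38 genome.
Atp5o: acctgcgtgCCAGCAGAGGGCgtcagatcc
Ndufaf4: tcctcccggCCACCAGGGGGCgacgagcgc
Ndufaf2: tcagctcttCCAGCAGAGGGCagcattgtt
Atp5s: tggttccagCCAGTAGGTGGCtcaggttca
Cox7b: tcaggcacaCCAGCAGGGGGCatcagatcc
The Atp5o and Ndufaf4 matches lay inside the boundary bin. Those of Ndufaf2, Atp5s and Cox7b lay 1.81, 1.81 and 3.96 kb outside it.

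Respiratory chain genes lay closer to boundaries than other genes of like local density. Of the 98 start sites, 26 (26.5%, exact 95% binomial interval 18.1 to 36.4%) lay within 10 kb of a boundary bin, against 14.3% of all protein-coding genes. Each bin spans 5 kb, the start site is the 5′ end of the gene record, and distance is 0 inside the bin. Local density was the number of other protein-coding start sites within 100 kb, and other genes given the members' distribution of it had 14.1% within 10 kb. The members' share was 1.89 times that, or 26 genes where 13.8 would equal the matched share. These intervals cover counting error only and treat genes as independent, and no test of the difference was made, since 1 list has no replicates.

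The difference was concentrated at short distances. In the boundary bin itself lay 8 members (8.16%, exact 95% binomial interval 3.59 to 15.5%). The shares of all genes (3.86%) and of genes at matched density (3.79%) lay inside this interval. Within 25 kb there were 39 members and the ratio was 1.5, within 50 kb there were 56 and it was 1.25, and within 100 kb there were 76 and it was 1.04. The median member lay 35.6 kb from a boundary (order-statistic 95% interval 20.7 to 55.4 kb, quartiles 9.56 and 86.7 kb). The density-matched median was 55.7 kb with quartiles of 23.4 and 102 kb. Ranked among genes of their own density stratum, 40 of the 98 members fell below percentile 25, and 22 lay above percentile 75.

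**Figure D1:**
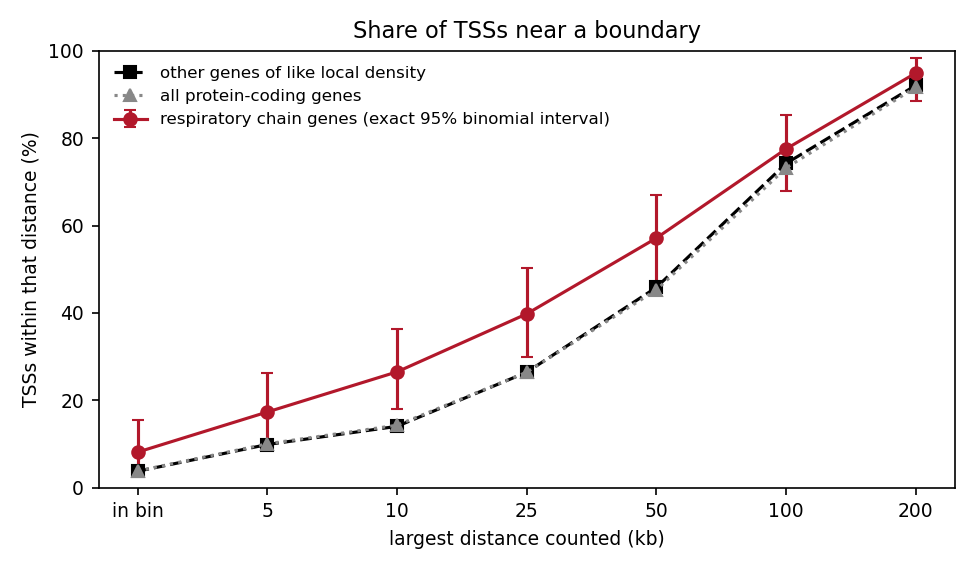
Percentage of start sites (vertical axis) within each distance of a boundary in kb (horizontal axis), for the respiratory chain genes with exact 95% binomial intervals, for other genes of like local density and for all protein-coding genes. The members stand at 26.5% within 10 kb against 14.1% at matched density, and the curves come together by 100 kb.

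The base composition of the promoter moved with this result. In the 80 members with a RefSeq promoter window, the median number of CpG dinucleotides in the 300 bases was 20, against 14 over all 16774 genes with a window and 19 over all such genes within 10 kb of a boundary. Of these 80 members, 22.5% (exact 95% binomial interval 13.9 to 33.2%) lay within 10 kb of a boundary, against 14.2% at matched density, a ratio of 1.58. Against genes of like CpG count the comparison share was 17.8% and the ratio 1.26. This comparison was added after the data were seen. Both comparison shares, 14.2% at matched density and 17.8% at like CpG count, lay inside the interval of these 80 members. Only 18 members within 10 kb had a window, so this subset leaves out some of the 26.

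Complex I, the NADH dehydrogenase, had 8 of its 38 subunit genes within 10 kb, a ratio of 1.5 to genes of matched density, and the median distance was 40.3 kb. All 8 lay at boundaries of the class the authors call strong, as did 65.0% of all 3116 protein-coding genes within 10 kb. In this list the strong class begins at a strength of 0.50. The score runs from 0.20 to 4.13 and is not defined in the labels. No group's count of strong boundaries was tested against the 65.0%. The start site of Ndufa12, an accessory subunit of the matrix arm (chr10:94198720-94221443), lay in a bin of strength 0.813. The start of Ndufb10, an accessory subunit of the membrane arm (chr17:24722060-24724478), lay in a bin of strength 1.44, together with the start sites of the ribosomal protein genes Rps2 and Rpl3l and of Rnf151 within 10 kb. These were the only complex I subunits with a start site inside a bin.

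Among the core subunits of complex I, which carry the redox centres, only Ndufs1 lay within 10 kb, 1 of 7 and a ratio of 1.08. Ndufs1 encodes the largest subunit, with several iron-sulphur clusters (chr1:63143596-63176833). Its start lay 3.17 kb from a bin of strength 2.09, a boundary stronger than 97.9% of the list, which overlapped Eef1b2 and Gpr1. Ndufs7 and Ndufv2 followed at 10.9 and 13.4 kb. Ndufv1, which holds the flavin, lay at 77.2 kb, and Ndufs8 and Ndufs3 lay at 173 and 195 kb. The 7 core genes were thus spread from a few kb to nearly 200 kb from a boundary.

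The other complex I subunits within 10 kb are accessory subunits of the membrane arm. Ndufb2 (chr6:39592574-39603382) lay 2.57 kb from a boundary of strength 0.670, and Ndufc1 (chr3:51404677-51408988) lay 6.01 kb from one of strength 1.12, in an exon of Naa15. Ndufb9 (chr15:58933756-58939488) shares a divergent promoter with Tatdn1, whose start is 18 bases away, and lay 6.25 kb from a boundary of strength 1.46. Ndufb11, on the X chromosome (chrX:20615326-20617619), lay 7.62 kb from a boundary of strength 1.11. Ndufb8 (chr19:44548572-44555440) lay 9.56 kb from a boundary of strength 0.750 that overlapped an exon of Hif1an. The farthest complex I gene was the accessory subunit gene Ndufa3 at 402 kb. Ndufa4, grouped here by its symbol although its protein is now placed in complex IV, lay at 237 kb.

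Of the 8 complex I assembly factor genes, 3 lay within 10 kb (37.5%, exact 95% binomial interval 8.52 to 75.5%), against 14.9% of other genes at matched density. All 3 lay at strong boundaries, as did 65.0% of all protein-coding genes within 10 kb. The median distance of 11.6 kb was the shortest of the 7 groups. Ndufaf2, which encodes a paralogue of the Ndufa12 protein that acts in assembly (chr13:108002715-108158623), had its start in a bin of strength 1.10, 108 bases from the divergent start of Ercc8. Ndufaf4 (chr4:24898083-24905001) started in a bin of strength 0.857, the boundary with the NRF1 and CTCF letters printed above, and was the only protein-coding gene whose exons overlapped that bin. Ndufaf5, which modifies an arginine of the Ndufs7 protein (chr2:140170649-140203689), lay 4.35 kb from a boundary of strength 0.683 inside its own gene. Ndufaf8 and Ndufaf1 lay just beyond the limit at 11.1 and 12.2 kb, and Ndufaf7 was farthest at 163 kb.

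Complex II, succinate dehydrogenase, had 1 of 4 subunit genes within 10 kb, where 0.522 genes would equal the matched share, so the count of 1 cannot be told from it. Sdhb, its iron-sulphur subunit (chr4:140961203-140979193), lay 1.20 kb from a boundary of strength 1.07 outside protein-coding genes. Sdhd, a membrane anchor, Sdha, the flavoprotein, and Sdhc, the other anchor, lay at 13.8, 30.3 and 55.6 kb. Of the 4 assembly factor genes 1 lay within 10 kb, where 0.578 would equal the matched share. That gene, Sdhaf2, which is needed to attach the flavin to Sdha (chr19:10500534-10526142), lay 1.14 kb from a weak boundary of strength 0.338 within its own gene. Sdhaf4 was farthest at 311 kb.

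Complex III, which passes electrons from ubiquinol to cytochrome c, had 3 of 8 genes within 10 kb, a ratio of 2.68, but only 1 of the 3 boundaries was strong. Uqcrc2, a core subunit (chr7:120635176-120659524), lay 5.18 kb from a boundary of strength 2.17, stronger than 98.1% of the list. Uqcrq (chr11:53427922-53430831), a small accessory subunit gene whose start is 192 bases from that of Gdf9, started in a weak bin of strength 0.425. Uqcr11 (chr10:80402997-80406830), another small subunit gene, lay 6.83 kb from a weak boundary of strength 0.24, the weakest of all at these genes. Uqcrc1, the partner of Uqcrc2 in the complex, lay at 208 kb, and Uqcrb was farthest at 350 kb.

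Complex IV, cytochrome c oxidase, had 6 of 18 genes within 10 kb, a ratio of 2.38, and 4 of the 6 boundaries were strong. Cox4i1, the widely expressed form of a subunit that regulates the enzyme (chr8:120668222-120674207), lay 1.78 kb from a boundary of strength 1.47 that overlapped its own exons. Cox6c (chr15:35925886-35938246) started in a bin of strength 0.777. Cox7a2l, whose product joins complexes III and IV into supercomplexes (chr17:83501918-83517330), lay 2.67 kb from a boundary of strength 0.724. Cox8a, the widely expressed form of the smallest subunit (chr19:7215153-7217616), lay 7.39 kb from a boundary of strength 0.973. The other two boundaries were weak. Cox7b (chrX:106015700-106022450) lay 0.700 kb from one of strength 0.392 at Magt1, and Cox8b, the heart and muscle form (chr7:140898945-140900446), lay 9.56 kb from one of strength 0.247. The farthest was Cox7b2 at 123 kb.

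Among ATP synthase genes, 4 of 18 records lay within 10 kb (22.2%, exact 95% binomial interval 6.41 to 47.6%), against 14.2% at matched density. The ratio was 1.56, and all 4 lay at strong boundaries, as did 65.0% of all protein-coding genes within 10 kb. However, 2 of the 4 are records of the single gene Atp5o. Atp5a1, the alpha subunit of the catalytic head, started in a bin of strength 1.21 shared with Haus1. Atp5s, which encodes coupling factor B, started in a bin of strength 0.682. The other 2 were the 2 records of Atp5o, the subunit of the peripheral stalk that confers oligomycin sensitivity, at 3.31 and 8.02 kb from a single boundary of strength 2.22. That was the strongest boundary at any of these genes. Without the second, longer Atp5o record, 25 of 97 genes lay within 10 kb and the ratio was 1.83. Counting subunits only, which left out the assembly factors, Atp5s, Cox7a2l and Ndufa4l2, 20 of 83 records lay within 10 kb, a ratio of 1.73. Atp5f1 lay just outside the limit at 10.1 kb from a boundary of strength 1.40, and Atp5g3, one of 3 genes for the membrane ring subunit, was farthest at 136 kb. The shares of the 7 groups ranged from 21.1 to 37.5%, with exact 95% binomial intervals that all overlapped, and differences between groups were not tested. In every group the density-matched share, 13.1 to 14.9%, lay inside the interval, so no single group can be told from its matched share.

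**Figure D2:**
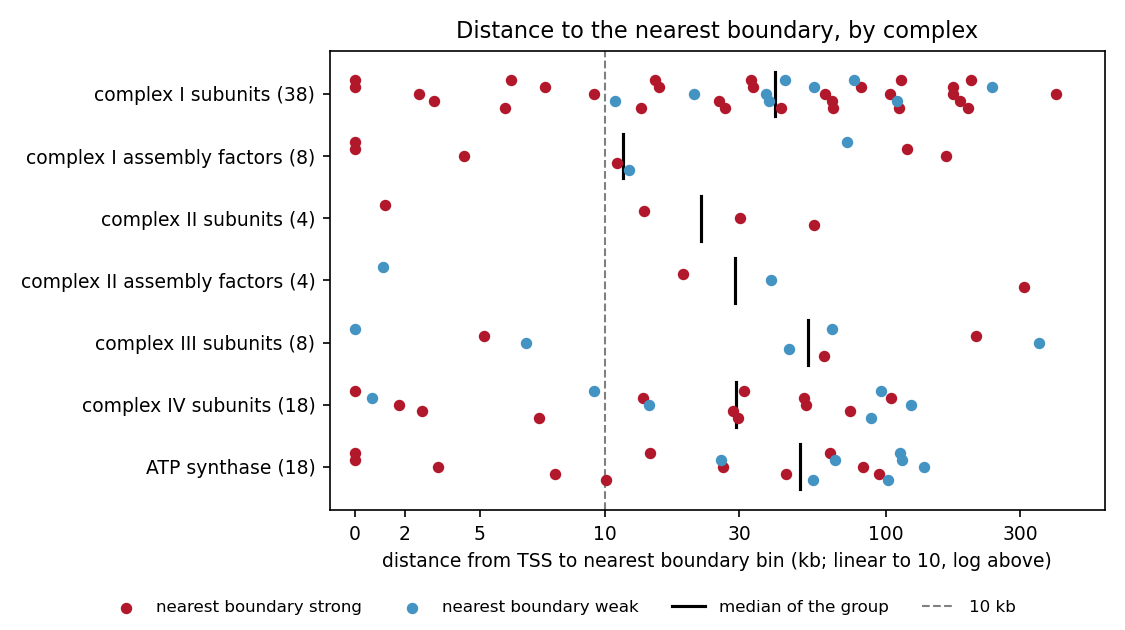
Distance from each start site to the nearest boundary bin in kb (horizontal axis, linear to 10 kb and logarithmic above) for the 98 records, by group (vertical axis, number of records in brackets), coloured by the authors' class of that boundary, with black bars at the group medians. Every group has at least 1 gene within 10 kb, and group medians run from 11.6 kb for complex I assembly factors to 52.7 kb for complex III.

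The boundaries at respiratory chain genes were stronger than the list as a whole. The 26 records lay at 25 distinct boundaries, of which 20 (80%) were strong, with a median strength of 0.857 and a range of 0.24 to 2.22. Boundaries within 10 kb of any protein-coding start had a median of 0.666 and 63.6% strong, and all boundaries a median of 0.538 and 52.9% strong. A strength of 1 or more was found at 11 of the 25 (44%), against 27.6% of boundaries near any start site. Within 10 kb of a strong boundary lay 21 members (21.4%), against 9.3% of all genes and 9.20% at matched density, a ratio of 2.33. Counted by gene record, 80.8% of the 26 lay at a strong boundary, against 65.0% of all protein-coding genes within 10 kb. Among the sets described below, this share was 100% for proteasome genes, 90% for further assembly factors and carriers and 79.3% for cytosolic ribosomal proteins. It was 68.4% for mitochondrial ribosomal proteins, 60% for biogenesis regulators and 57.1% for citric acid cycle genes. A high share was thus not particular to respiratory chain genes. Strength is the authors' own value per boundary and is used here only to describe boundaries within their list; the differences in strength were not tested.

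**Figure D3:**
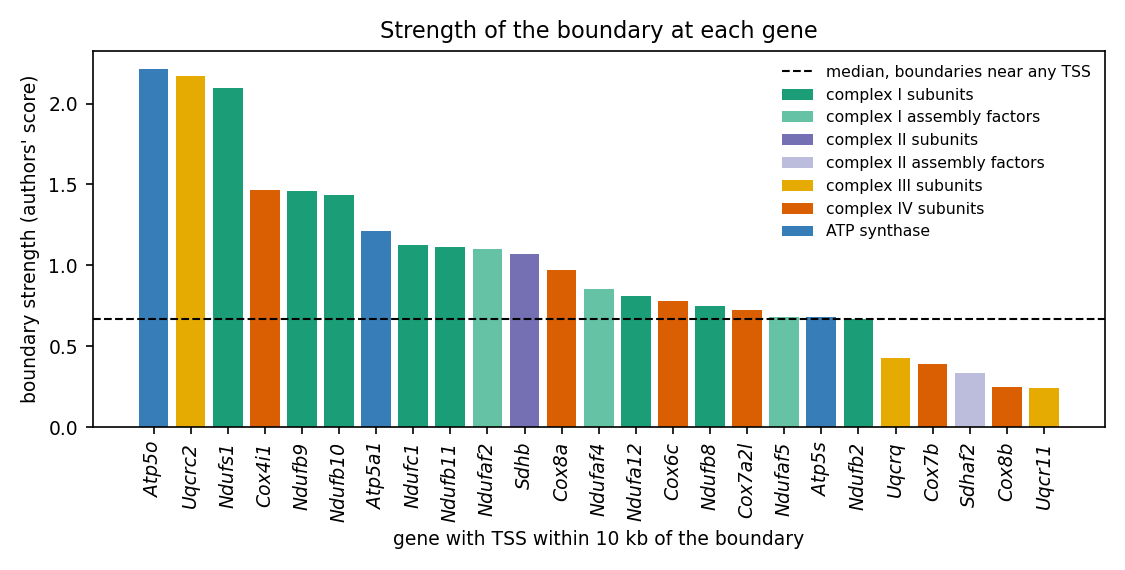
Strength of the boundary within 10 kb of each gene (vertical axis, the authors' score), one bar per gene on the horizontal axis, coloured by complex, with the median of boundaries near any protein-coding start as a dashed line. Atp5o, Uqcrc2 and Ndufs1 stand above 2.0, and the 5 weak boundaries at Uqcrq, Cox7b, Sdhaf2, Cox8b and Uqcr11 stand lowest.

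The side on which the boundary lay was close to that of other genes at a boundary. Of the 26 records, 8 had their start in the bin (30.8%), 12 had the bin upstream of the start (46.2%) and 6 had it downstream (23.1%). Over all 3116 protein-coding genes within 10 kb the shares were 26.9, 40.7 and 32.4%, and the differences were not tested. The bin overlapped an exon of a protein-coding gene at 19 of the 25 boundaries, lay outside such genes at 6, and was wholly intronic at none. These shares were not computed for other boundaries. The 25 were selected for lying near a start site, so the counts do not set them apart. Another protein-coding start lay within 10 kb of the same boundary for 17 of the 26 (65.4%), against 42.9% of all genes at a boundary.

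Many respiratory chain genes shared a divergent promoter, an opposite-strand protein-coding start within 1 kb upstream. This held for 23 of the 98 (23.5%), against 6.84% of all genes. Among the sets described below, the share was 26.3% for citric acid cycle genes and 23.1% for mitochondrial ribosomal protein genes. It was 16.3% for further assembly factors and carriers, 15.4% for proteasome genes, 10.4% for cytosolic ribosomal protein genes and 4.55% for biogenesis regulators. A high share was thus not particular to respiratory chain genes. Within the members a divergent promoter was as frequent at boundaries (6 of 26, 23.1%) as beyond 10 kb (17 of 72, 23.6%). Over all genes it was more frequent at boundaries, 10.4% against 6.25%. Matching the comparison genes on divergent promoters as well as density, an alternative added after seeing the data, gave a ratio of 1.71.

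The difference from other genes was larger where genes were sparse. Among members with up to 6 other start sites within 100 kb, 21 of 66 (31.8%, interval 20.9 to 44.4%) lay within 10 kb of a boundary, against 14.9% of other genes. With 7 or more, 5 of 32 did (15.6%, interval 5.28 to 32.8%), against 12.4%. The intervals of these members overlapped, and the difference between sparse and dense surroundings was not tested. The members had a median of 4 other start sites within 100 kb, against 3 for all genes, and were short, with a median length of 7.57 kb against 17.4 kb.

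**Figure D4:**
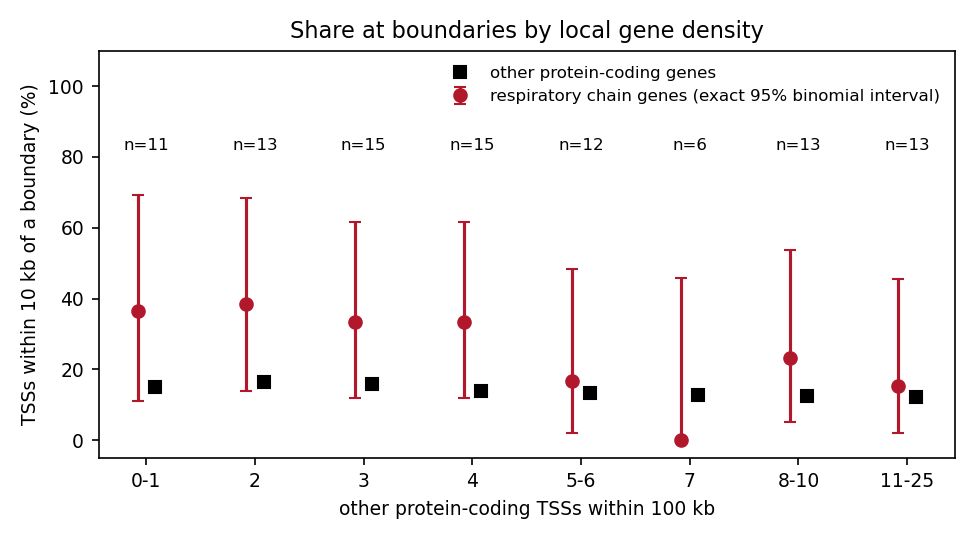
Percentage of start sites within 10 kb of a boundary (vertical axis) by the number of other protein-coding start sites within 100 kb (horizontal axis, 8 strata), for respiratory chain genes with exact 95% binomial intervals and their number, and for other genes. The members stand above the other genes in 7 of the 8 strata, and at 0 in the stratum with 7 other start sites.

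Genes for alternative forms of one subunit lay at like distances in some groups and at different distances in others, and no test compared them. Of 8 such groups, 4 had a gene within 10 kb. Over all 8 groups 5 of 19 genes lay within 10 kb, beside 26.5% of all members and 14.3% of all protein-coding genes. This count does not set the alternative forms apart from the other members. The widely expressed Cox4i1 lay at 1.78 kb and its lung-enriched counterpart Cox4i2 at 74.2 kb. Cox7b lay at 0.700 kb and its testis-enriched counterpart Cox7b2 at 123 kb. Cox7a2l lay at 2.67 kb, Cox7a2 at 29.9 kb and Cox7a1, the heart and muscle form, at 95.9 kb. All 3 Cox8 genes were near, with Cox8a at 7.39, Cox8b at 9.56 and Cox8c at 14.3 kb. The muscle form Cox6a2 lay at 13.6 kb and Cox6a1 at 104 kb, so the widely expressed form was not always the nearer one. Cox6b1 and Cox6b2 lay at 31.2 and 51.9 kb. The ATP synthase ring genes Atp5g1, Atp5g2 and Atp5g3 were all far, at 65.7, 82.6 and 136 kb, as were Ndufa4 at 237 kb and Ndufa4l2 at 200 kb.

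How often genes of a scattered set share an interval between neighbouring boundaries was not computed, so only the members that did so are described. Among them were the complex I core genes Ndufs8 and Ndufv1, which lay 100 kb apart in a 350 kb interval with 18 protein-coding start sites (chr19:3740001-4090000). Other neighbours were separated, with 1 boundary between Atp5d and Ndufs7, 2 between Ndufs7 and Uqcr11, and 1 between Cox7a1 and Sdhaf1. Members lay on 19 of the 20 chromosomes and members within 10 kb on 17 of them. None of the 6 members on chromosome 9 and none of the 4 on chromosome 5 lay within 10 kb. With 14.3% of all protein-coding genes within 10 kb, such small numbers do not set these chromosomes apart.

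The promoters of respiratory chain genes held motifs for mitochondrial gene regulators more often than other promoters, with the exception of SP1, which was searched beside them. The windows of 80 members were searched on both strands. The NRF1 motif was in 23 (28.8%), against 9.17% of the 16774 promoters. The ETS motif CCGGAAG, bound by GABP among others, was in 20 (25%), against 12.3%, and the YY1 motif ANATGGCGG was in 9 (11.3%), against 2.71%. The SP1 motif GGGCGG, common in CpG-rich promoters, was in 39 (48.8%), against 48.2%. At least 1 of the NRF1, ETS and YY1 motifs was in 42 (52.5%), against 21.4%. None of these motifs contains another, although matches may overlap. The promoters compared here were not matched on CpG count.

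Within 10 kb of a boundary, 8 of 18 member promoters (44.4%) held at least 1 of these 3 motifs, and beyond it 34 of 62 (54.8%). NRF1 matches at boundaries were in Ndufb10, Ndufaf4, Ndufaf5, Uqcr11 and Atp5o, 5 of 18 (27.8%), against 18 of 62 (29.0%) beyond. ETS matches were in Sdhb, Sdhaf2, Uqcr11 and Cox8a, and the single YY1 match was in Sdhaf2. Over all genes, 31.5% of promoters within 10 kb held at least 1 of the 3, which lay inside the exact 95% binomial interval of the 18 member promoters (21.5 to 69.2%). A match is a description of letters and not evidence that a factor binds.

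**Figure D5:**
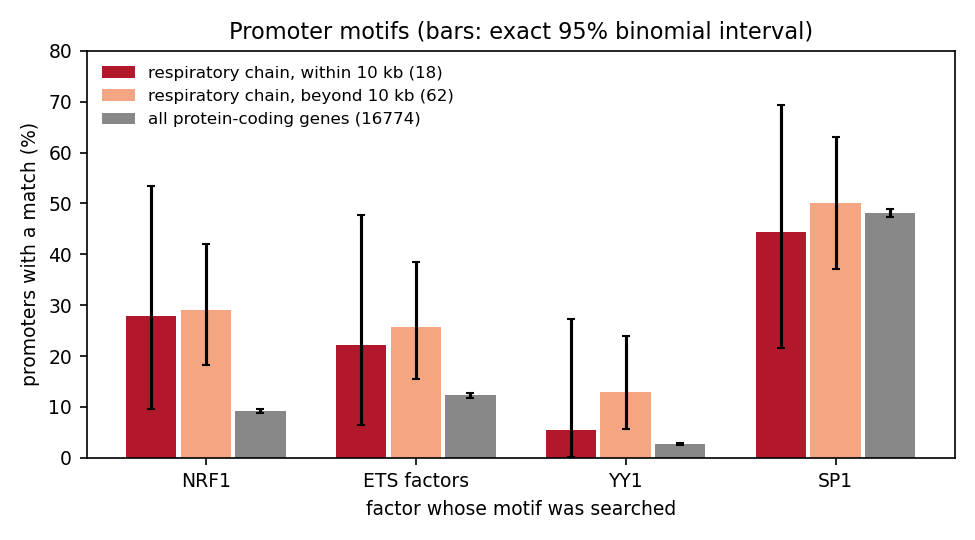
Percentage of promoters with at least 1 motif match (vertical axis) for 4 factors (horizontal axis), in respiratory chain genes within and beyond 10 kb of a boundary and in all protein-coding genes, with exact 95% binomial intervals and the number of promoters in brackets. NRF1 matches stand at 27.8% within and 29.0% beyond 10 kb, against 9.17% of all promoters, while SP1 matches stand at 44.4, 50 and 48.2%.

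The CTCF consensus was found within 10 kb of the bin, or inside it, at 8 of the 25 boundaries (32%, exact 95% binomial interval 14.9 to 53.5%). The share was 27.4% for boundaries near any protein-coding start and 24.4% for all. The 8 were the boundaries at Ndufs1, with 4 matches, Ndufb9, with 2, and Atp5o, Ndufaf4, Ndufaf2, Atp5s, Cox7b and Atp5a1, with 1 each. Their median strength was 1.16, against 0.777 for the other 17. Over all boundaries the same medians were 0.727 and 0.470. No match was found at Uqcrc2, whose boundary was the next strongest after that of Atp5o, and a search for one consensus says nothing of CTCF sites spelled otherwise.

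Other gene sets of mitochondrial and housekeeping function had shares from 22.7 to 37.7% within 10 kb. The respiratory chain genes had 26.5% and all protein-coding genes 14.3%. Within 10 kb lay 19 of 78 mitochondrial ribosomal protein genes (24.4%, ratio 1.74), 29 of 77 cytosolic ribosomal protein genes (37.7%, ratio 2.72) and 9 of 39 proteasome genes (23.1%, ratio 1.64). Of the citric acid cycle genes, which feed the chain with NADH and succinate, 7 of 19 did (36.8%, ratio 2.51), with a median of 16.6 kb, and the strongest boundaries were at Idh3b (0.859) and Dlst (0.805), while Idh3g was farthest at 117 kb. Of the assembly factors and electron carriers outside the symbol rule, 10 of 43 did (23.3%, ratio 1.63), with the strongest boundaries at Etfdh (2.02) and Cyct (1.64), and Sco2 farthest at 231 kb. Of the regulators of mitochondrial biogenesis, 5 of 22 did (22.7%, ratio 1.56), with the strongest at Tfb1m (2.52) and Tfam (1.07), and Mterf3 farthest at 322 kb. The ratio of 1.89 for the respiratory chain genes lay within the range of these sets, and no difference between sets was tested.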

How the data were processed

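In situ Hi-C was made from 2 biological replicates of 1 group. Per the labels, contacts were mapped to GRCm38 and pooled before boundaries were called. No caller, version or window is given in the labels. Each row of the deposited list is a 5 kb bin with the authors' strength score and a strong or weak class. The list has no counts or depth.

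Distances from GENCODE M21 start sites to the nearest bin were computed with numpy 2.4.6 and pandas 2.3.3 in Python 3.11.15 and checked against bedtools 2.31.1. Local density was planned in 10 strata, but tied numbers merged these into 8. Non-members were weighted to the members' number per stratum. Intervals are exact binomial (scipy 1.17.1, 95%) and cover counting error only. The weighting was tested on simulated data. RefSeq promoter windows were matched by symbol, and for 2 members by an older symbol. For 4 of the 80 the RefSeq and GENCODE starts differed by over 1 kb, Cox7a2l among them. The CTCF consensus was searched in the RefSeq GRCm38.p6 genome.

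Named genes are members within 10 kb, the nearest and farthest of each complex, core complex I subunits, alternative forms, members sharing an interval, and 3 genes of each other list. Genes just outside 10 kb and a few others were named after their values were seen. Members and lists were chosen with earlier results of these data known. Results for a few genes are not reported here.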

Additional observations from a re-analysis of the deposited data

How the results depend on the processing

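Other settings (distance limits, density windows and strata, strong boundaries only, subsets of the genes) were tried on each main result where they applied. A setting was counted once for each result, so the 36 comparisons come from fewer settings. Of these 36, 32 left the value within its interval or within 1.5 times the count, and none reversed a direction. Counting members closer than 100 kb once gave the same values as leaving out the second Atp5o record. Counting start sites in the bin alone gave 8 members, and within 50 kb 56, where the ratio fell to 1.25. The median distance to strong boundaries alone was 69.6 kb. Of 9 comparisons added after the data were seen, counted in the same way, 1 moved its value. It matched on promoter CpG count in place of density, over the 80 members with a promoter window, and gave a ratio of 1.26. Density matching over the same 80 members gave 1.58, so part of the fall from 1.89 came with the smaller set of genes. The remaining added ratios ran up to 1.91. The cause of the fall with CpG count was not tested. No paired analysis was possible because both replicates are of 1 genotype and their contacts were pooled before boundary calling. For the same reason no replicate could be left out. With 1 list and no depth, precision is limited to counting error, which ignores that neighbouring genes share boundaries.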
